A study of Mus musculus with 6 samples.

Results

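The genes described here were 10 antiviral genes induced by type I interferon, namely Ifit1, Ifit2, Ifit3, Isg15, Mx1, Mx2, Rsad2, Usp18, Oasl2 and Ifi35, chosen by name. They were chosen with earlier results of these data known. Every probe set of these genes was taken on all 6 arrays. Of the 10 listed genes, 9 had a probe set assigned to that gene alone, among 12393 such genes on the array. Isg15 was measured only by a probe set shared with the pseudogene Gm9706, so its values are given apart and it is not counted among the 9.

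The arrays held total RNA of transplanted mouse hearts, with 1 array in each of 6 groups. The groups were an allograft from mice given ABH4 (4-amino tetrahydrobiopterin, 50 mg/kg every 8 h), one under BH4 (tetrahydrobiopterin, 50 mg/kg every 8 h), one under CsA (cyclosporin A, 15 mg/kg every 24 h), one under NIL (N-imino ethyl-L-lysine, 5 mg/kg every 8 h), an untreated allograft and an untreated syngraft. Nitric oxide synthases need BH4 as a cofactor, which ABH4, carrying a 4-amino group, antagonises. NIL inhibits inducible nitric oxide synthase, and cyclosporin A blocks calcineurin in T cells. The labels used here give no mouse strain, no day of graft removal and no statement on pooled animals. With 1 array a group there is no replicate spread, so differences are described by size, without a test, and cannot be separated from differences between single grafts.

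Type I interferons, interferon-alpha and interferon-beta, bind the receptor chains Ifnar1 and Ifnar2. The kinases Jak1 and Tyk2 then activate a transcription factor complex that holds Stat2 and Irf9 and binds interferon-stimulated response elements in the promoters of genes such as these. Interferon-gamma acts through a receptor of its own and gamma-activated sites, and can also raise several of the same genes. In a graft, heart cells and infiltrating leukocytes can all respond to both.

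RefSeq promoter windows on mouse build GRCm38.p6, from 250 bases before to 50 bases after a transcription start, were found for 7 of the 10 genes, with none for Mx1, Mx2 or Usp18. The core letters of the interferon-stimulated response element, searched on both strands as GAAA, any 2 bases and GAAA, stood in the windows of 4 of the 7 genes (Ifit1, Ifit3, Isg15 and Rsad2) and in 3.44% of all 32851 windows. The core letters of the gamma-activated site, TTCNNNGAA, which reads the same on both strands, stood in those of Ifit2 and Ifi35 and in 8.3% of all windows. The 4 stretches with the first motif are printed 5' to 3' on the gene's own strand, since this is the element through which these genes are known to be induced. They run from 170 to 51 bases upstream of the start, and capitals mark this motif or its reverse complement. The stretch of Ifit1 lies at chr19:34640719-34640838 (plus strand), Ifit3 at chr19:34583359-34583478 (plus strand), Isg15 at chr4:156200869-156200988 (minus strand) and Rsad2 at chr12:26456503-26456622 (minus strand).
Ifit1: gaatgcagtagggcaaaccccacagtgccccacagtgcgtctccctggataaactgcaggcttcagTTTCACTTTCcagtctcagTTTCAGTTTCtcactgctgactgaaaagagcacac
Ifit3: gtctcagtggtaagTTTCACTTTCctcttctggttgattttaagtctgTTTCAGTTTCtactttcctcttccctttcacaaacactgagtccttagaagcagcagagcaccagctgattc
Isg15: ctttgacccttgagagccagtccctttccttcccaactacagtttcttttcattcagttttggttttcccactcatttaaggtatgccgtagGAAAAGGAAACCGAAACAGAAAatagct
Rsad2: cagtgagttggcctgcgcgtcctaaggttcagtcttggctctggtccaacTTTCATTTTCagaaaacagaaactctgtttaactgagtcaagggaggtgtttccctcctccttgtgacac
The matches began 104 and 85 bases upstream of the start in Ifit1, 156 and 122 bases upstream in Ifit3, and 120 bases upstream in Rsad2. Isg15 held 3 overlapping matches, which began 78, 72 and 66 bases upstream. A match describes letters and shows no binding.

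Values are signals after each array was rescaled to a common median. A difference counts as higher or lower when it reached 1.5-fold. Signals under a floor of 34.8, the 30th percentile of all values, were set to it before genes were compared. Printed signals and marker sums are the values before that step. The heart muscle markers (7 of 7 measured, none at the floor) summed to between 39236 and 48734 signal units on the 6 arrays, so heart tissue was present throughout. The T cell markers, 6 of 7 measured, summed to 1907 units on the ABH4, 1291 on the BH4, 170 on the CsA and 1839 on the NIL array, against 1677 in the untreated allograft and 93 in the syngraft. All 6 measured T cell markers were under the floor in the syngraft, and 4 of the 6 on the CsA array. In whole tissue, fewer cells of a type and less RNA per cell cannot be told apart.

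All 9 measured genes were brightest in the untreated allograft, and 8 of the 9 were dimmest in the syngraft. The untreated allograft was the highest of the 6 arrays for 19.7% of the 10560 genes above the floor on at least 1 array, and the syngraft was the lowest for 23.8%. Between these ends the treated allografts formed an order: CsA and NIL were both below ABH4 and BH4 for 7 of the 9 genes, against 23.8% of all genes. The exceptions among the 9 were Mx1 and Mx2. The same order held for 24 of 39 other type I interferon induced genes and 9 of 17 interferon-gamma arm genes, lists described below. The untreated allograft was the highest array for 43.6% of those other type I genes and 52.9% of the arm. Because members and lists were chosen with earlier results of these data known, these counts describe the chosen genes only. The syngraft and untreated allograft values set the scale for what follows.

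**Figure D1:**
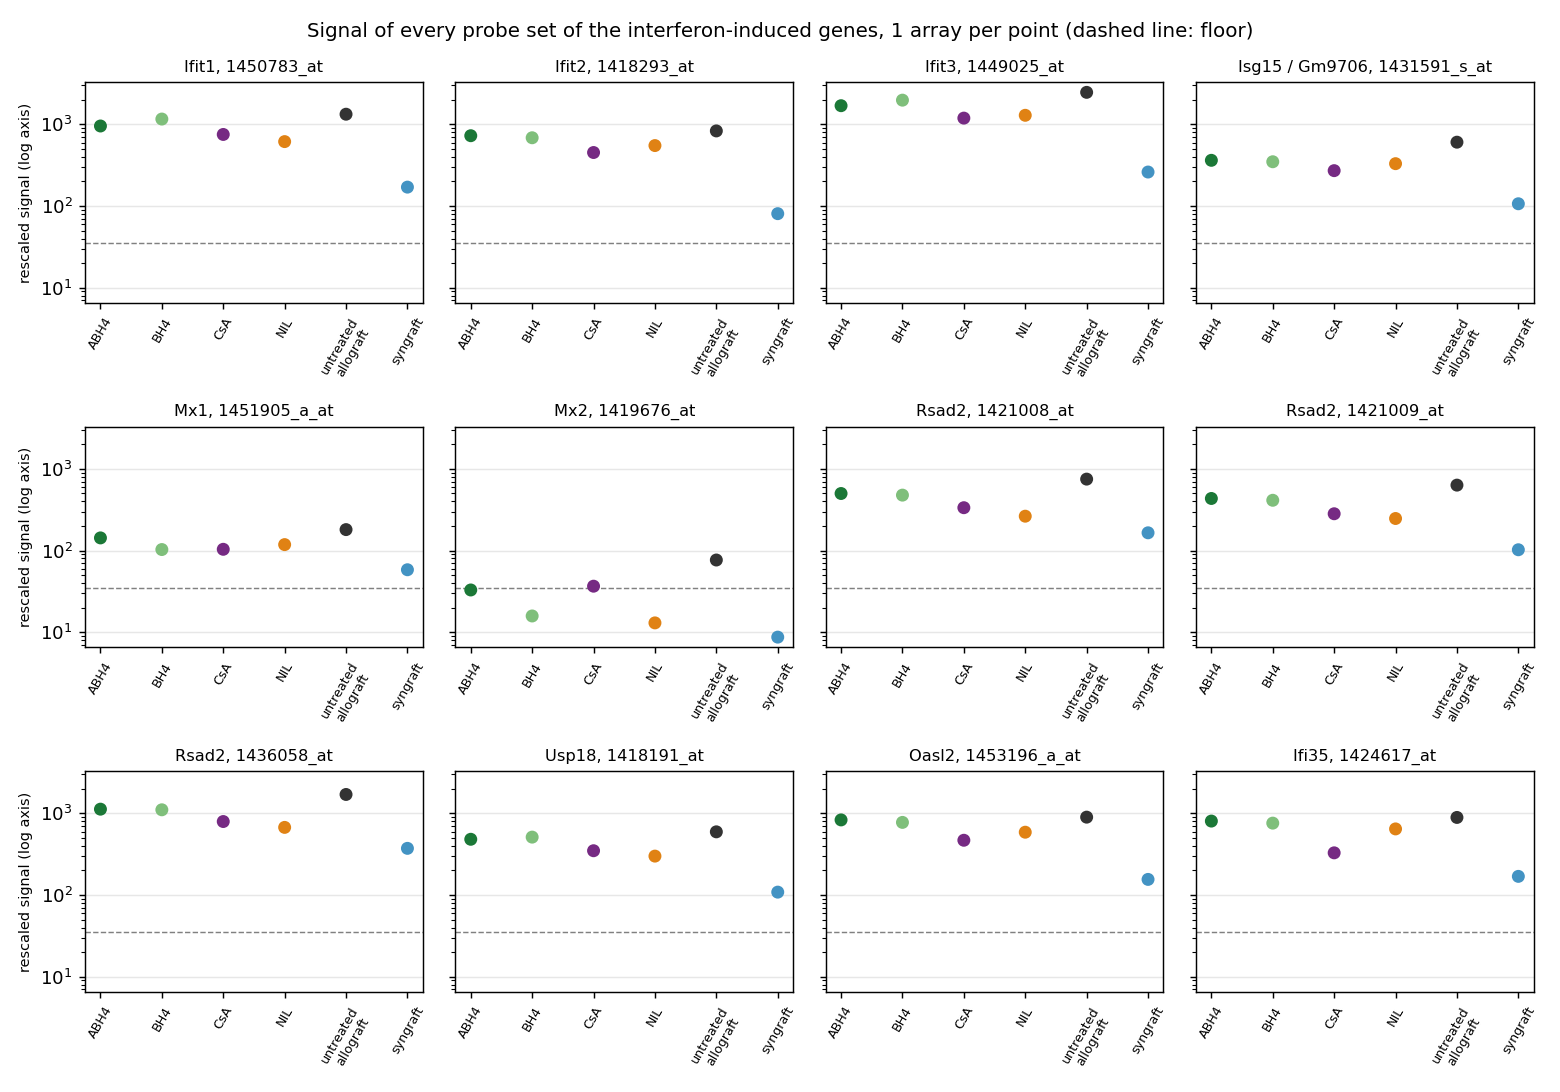
Rescaled signal (log axis, arbitrary units) of each probe set of the 10 listed genes on the 6 arrays, 1 point per array and no replicates. In the untreated allograft Ifit3 reached 2471 units and in the syngraft 261, and the CsA and NIL points of most genes lie between those of ABH4 and BH4 and that of the syngraft.

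The Ifit genes encode proteins that bind viral RNA and block its translation, and lie in a single cluster on chromosome 19. Ifit1 (probe set 1450783_at) had a signal of 957 on ABH4, 1164 on BH4, 753.5 on CsA and 616 on NIL, against 1334 in the untreated allograft and 171 in the syngraft. Ifit2 (1418293_at) had 727 on ABH4, 686.5 on BH4, 453 on CsA and 551 on NIL, against 833 in the untreated allograft and 80.7 in the syngraft. Ifit3 (1449025_at) had 1696 on ABH4, 1983 on BH4, 1195 on CsA and 1293 on NIL, against 2471 in the untreated allograft and 261 in the syngraft. All 5 allografts lay above the syngraft for each of the 3 genes, and the CsA and NIL signals lay below both pteridine arrays. The near-identical copy Ifit3b may share signal with Ifit3. The lowest treated array was NIL for Ifit1 and CsA for Ifit2 and Ifit3.

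Rsad2 (viperin), which makes a chain-terminating nucleotide against viral polymerases, was measured by 3 probe sets. The brightest (1436058_at) read 1127 on ABH4, 1108 on BH4, 796 on CsA and 674.5 on NIL, against 1707 in the untreated allograft and 373 in the syngraft. The second (1421008_at) read 499.9 on ABH4, 478 on BH4, 335 on CsA and 264 on NIL, against 750.1 in the untreated allograft and 165 in the syngraft. The third (1421009_at) read 434.5 on ABH4, 413 on BH4, 282 on CsA and 247 on NIL, against 633 in the untreated allograft and 102 in the syngraft. All 3 probe sets put the 6 arrays in the same order, with NIL the lowest of the treated allografts.

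The ISG15 system tags proteins with the ubiquitin-like Isg15, and Usp18 removes the tag and also dampens signalling at Ifnar2. Usp18 (1418191_at) had 482 on ABH4, 513 on BH4, 349 on CsA and 300.0 on NIL, against 595 in the untreated allograft and 109 in the syngraft. The probe set shared by Isg15 and Gm9706 (1431591_s_at) had 363 on ABH4, 349 on BH4, 271.5 on CsA and 331 on NIL, against 606 in the untreated allograft and 107 in the syngraft. NIL was the lowest treated array for Usp18, and CsA for the shared probe set. Of the other genes of the system, Uba7, its activating enzyme, had 814 on ABH4, 833 on BH4, 504 on CsA and 813 on NIL, against 1009.8 in the untreated allograft and 199 in the syngraft.

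Oasl2 belongs to the oligoadenylate synthetase family, and Ifi35 is a cytoplasmic partner of Nmi. Oasl2 (1453196_a_at) had 833 on ABH4, 776.5 on BH4, 469 on CsA and 589 on NIL, against 900.3 in the untreated allograft and 155.5 in the syngraft. Ifi35 (1424617_at) had 806 on ABH4, 760.5 on BH4, 329 on CsA and 646 on NIL, against 893 in the untreated allograft and 169 in the syngraft. CsA was the lowest treated array for both, and the ABH4 signals came close to the untreated allograft.

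Mx1 and Mx2 encode dynamin-like GTPases that restrict viruses, and the C57BL/6J reference annotates both as transcribed pseudogenes. Mx1 (1451905_a_at) had 143 on ABH4, 103 on BH4, 104 on CsA and 118 on NIL, against 181 in the untreated allograft and 58.2 in the syngraft. Mx2 (1419676_at) was above the floor only in the CsA allograft (36.6) and the untreated allograft (76.6). Mx1 was the gene for which BH4 was the lowest treated array, just below CsA, and Mx2 gave only bounds on 4 of the 6 arrays.

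The first comparison set the untreated allograft against the syngraft, that is, transplantation with a donor-recipient difference against without. All 9 genes reached 1.5-fold in favour of the untreated allograft, where 15.4% of all genes were. Their median log2 difference was 2.45, and that of all genes was 0.00. The largest were Ifit2, 10.3-fold, Ifit3, 9.46-fold, and Ifit1, 7.82-fold higher, followed by Oasl2 (5.79-fold), Usp18 (5.48-fold), Ifi35 (5.27-fold), Rsad2 (4.57-fold) and Mx1 (3.10-fold). Mx2 was at least 2.20-fold higher, and the shared Isg15 probe set 5.68-fold. The treated allografts each had 8 of 9 genes higher than the syngraft, all but Mx2. The matching shares of all genes were 14.9% for ABH4, 13.9% for BH4, 6.83% for CsA and 13.1% for NIL. Median log2 differences from the syngraft were 2.25 for ABH4, 2.24 for BH4, 1.59 for CsA and 1.85 for NIL.

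The second comparison set each treated allograft against the same untreated allograft, so the 4 sets of differences share that array. Under CsA all 9 genes were lower, where 12.2% of all genes were, with a median log2 difference of -0.94. Ifi35 was 2.71-fold, Rsad2 2.15-fold, Mx2 2.10-fold and Ifit3 2.07-fold lower under CsA, and the other 5 between 1.70-fold (Usp18) and 1.92-fold (Oasl2). Under NIL 8 of 9 were lower, all but Ifi35, where 5.33% of all genes were, with a median of -0.93. Rsad2 was 2.53-fold lower under NIL, Ifit1 2.17-fold, Usp18 1.98-fold and Ifit3 1.91-fold. Mx2 was at least 2.20-fold lower under NIL, while Mx1, Oasl2 (1.53-fold each) and Ifit2 (1.51-fold) lay next to the threshold. Ifi35 was 1.38-fold lower. On the deposited scale, without rescaling, 5 of 9 were lower under NIL.

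ABH4 and BH4 lay nearer the untreated allograft. Under ABH4, 2 of 9 genes were lower, Rsad2 (1.51-fold) and Mx2 (at least 2.20-fold), where 2.49% of all genes were, and the median was -0.34. Under BH4, 3 of 9 were lower, Mx1 (1.75-fold), Rsad2 (1.54-fold) and Mx2 (at least 2.20-fold), where 3.35% of all genes were, and the median was -0.28. The ABH4 count was 1 on the deposited scale, with quantile normalization, with the floor at the 50th percentile and with the mean of probe sets, since Rsad2 or Mx2 then missed the threshold. The other 7 genes under ABH4 were between 1.08-fold (Oasl2) and 1.46-fold (Ifit3) lower. The shared Isg15 probe set was 1.67-fold lower under ABH4 and 1.74-fold under BH4. The BH4 array also carried salivary gland transcripts, whose 5 measured markers summed to 12490 signal units there, against 154 in the untreated allograft. Their part in the BH4 values was not tested.

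**Figure D2:**
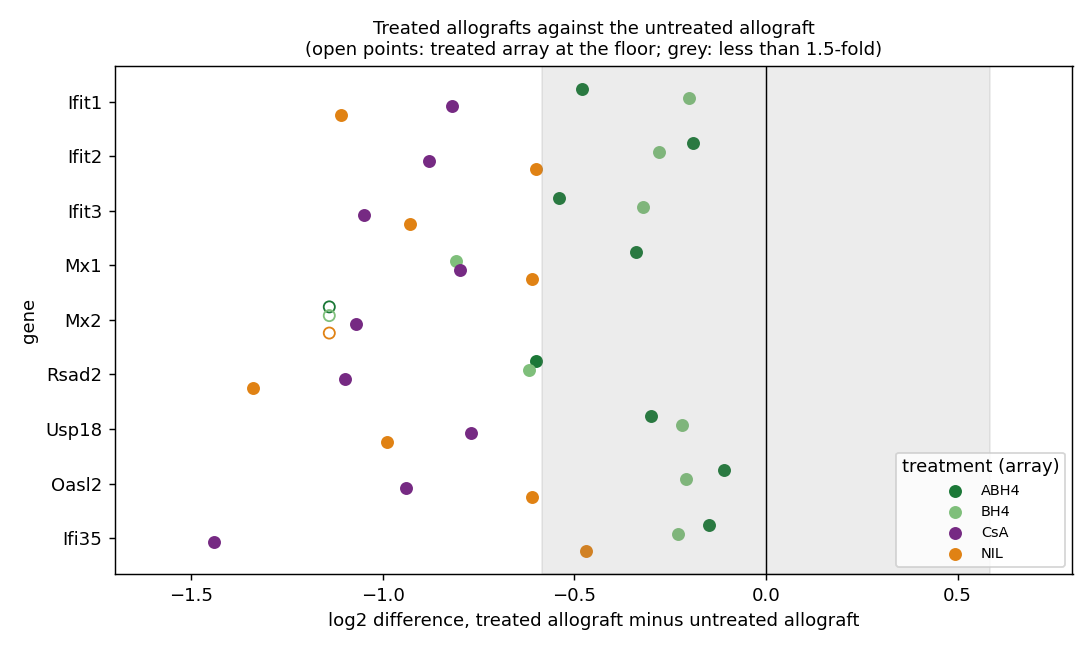
Log2 difference of each treated allograft from the untreated allograft for each measured gene, 1 array per group. All 9 genes lie below 0 for every treatment, with medians of -0.34 under ABH4, -0.28 under BH4, -0.94 under CsA and -0.93 under NIL.

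Because the untreated array was the highest for every member, the 4 treated allografts were also compared with each other, in 6 pairs that do not use it. The 2 pteridines, given at the same dose and interval, differed by 1.5-fold in none of the 9 genes. Of all genes, ABH4 was higher than BH4 in 3.24% and lower in 4.11%, so this count is near the share of all genes. The median log2 difference of ABH4 minus BH4 was 0.03, and single genes ran between -0.28 for Ifit1 and 0.47 for Mx1. No interval of this difference can be given with 1 array each, so the arrays do not show that the compounds act alike.

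CsA was given at another dose and interval than the pteridines, and NIL at another dose with the same interval, so the next values stand side by side. Against ABH4, the CsA allograft was lower in 3 of 9 genes, Ifi35 (2.45-fold), Oasl2 (1.78-fold) and Ifit2 (1.61-fold), where 11.5% of all genes were. Against BH4 it was lower in 5, Ifi35 (2.31-fold), Oasl2, Ifit3 (1.66-fold each), Ifit1 (1.54-fold) and Ifit2 (1.52-fold), where 10.4% of all genes were. On the deposited scale that count was 1. Both sets had their largest difference at Ifi35.

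Against NIL, the ABH4 allograft was higher in 3 genes, Rsad2 (1.67-fold), Usp18 (1.61-fold) and Ifit1 (1.55-fold), where 4.3% of all genes were. The BH4 allograft was higher than NIL in 4, Ifit1 (1.89-fold), Usp18 (1.71-fold), Rsad2 (1.64-fold) and Ifit3 (1.53-fold), where 6.06% of all genes were. The median log2 difference was 0.40 in both. On the deposited scale 2 genes were higher under BH4 than under NIL, and with quantile normalization 1 was higher under ABH4 than under NIL.

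CsA and NIL themselves differed in 1 gene, Ifi35, 1.96-fold lower under CsA, where 9.44% of all genes were lower. The median log2 difference of CsA minus NIL was -0.11. Ifit1 (1.22-fold), Rsad2 (1.18-fold) and Usp18 (1.16-fold) were higher under CsA, while Oasl2 (1.25-fold), Ifit2 (1.22-fold), Mx1 (1.14-fold) and Ifit3 (1.08-fold) were lower, all short of the threshold. NIL was the lowest treated array for Ifit1, Rsad2 and Usp18, 33.3% of the 9 genes against 21.4% of all genes. CsA was the lowest for Ifit2, Ifit3, Oasl2 and Ifi35, 44.4% against 33.2%. With 9 genes these shares are near those of all genes. CsA was the lowest for 32 of 39 other type I interferon induced genes and 15 of 17 interferon-gamma arm genes, and NIL for 5 and 1.

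**Figure D3:**
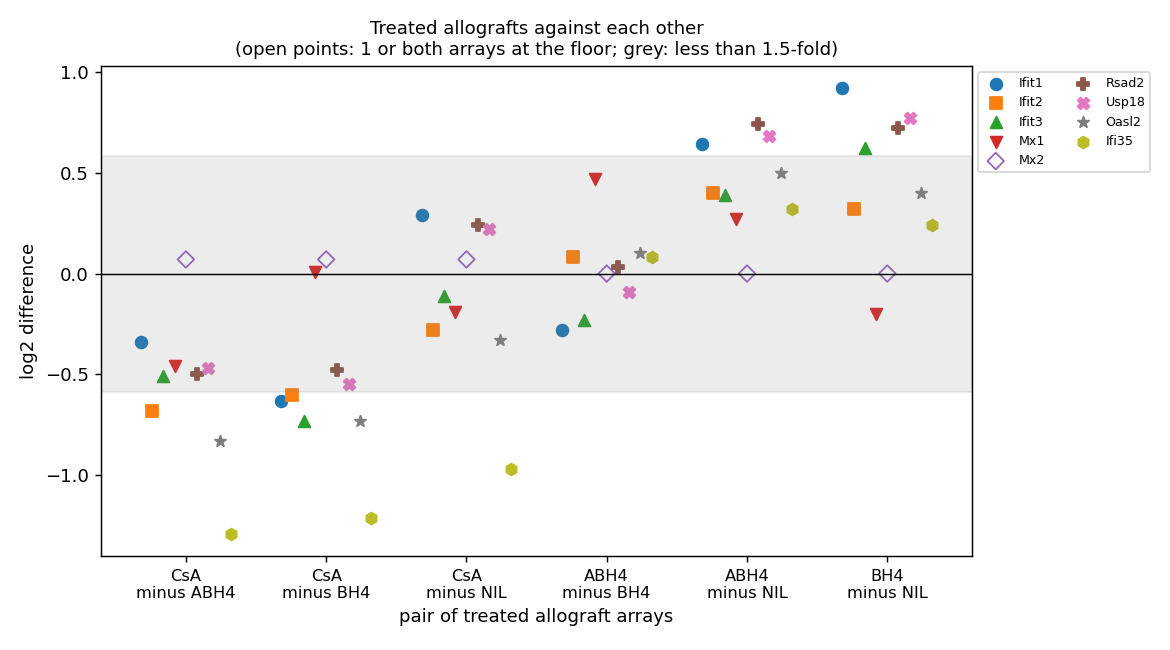
Log2 difference in each of the 6 pairs of treated allografts, 1 point per gene and 1 array per group. ABH4 minus BH4 has a median of 0.03, both pteridines minus NIL have a median of 0.40, and CsA minus NIL has -0.11 with Ifi35 lowest. The median of all genes is 0.0 in each of these pairs.

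The share of the untreated allograft's excess over the syngraft that each treated allograft kept was computed on linear signals. A gene entered if it was above the floor on all 6 arrays and at least 1.5-fold higher in the untreated allograft than in the syngraft, which kept 8 of the 9 genes, all but Mx2. Entry thus used the same 2 arrays that form the excess, so the shares describe the genes that entered and not whole lists. ABH4 kept a median of 73.0%, from 56.6% (Rsad2) to 90.9% (Oasl2), and BH4 81.1%, from 36.5% (Mx1) to 85.4% (Ifit1). CsA kept 42.2%, from 22.1% (Ifi35) to 50.1% (Ifit1), and NIL 47.9%, from 22.6% (Rsad2) to 65.9% (Ifi35). Of the genes of the interferon-gamma arm, 13 entered, without Ifng, which was under the floor in the syngraft, with medians of 90.4% under ABH4, 91.6% under BH4, 35.9% under CsA and 84.1% under NIL. Of other type I interferon induced genes, 30 entered, with medians of 94.8%, 81.1%, 37.5% and 66.7% in the same order of treatments. The CsA medians of the 3 lists lay between 35.9% and 42.2%, and the NIL medians between 47.9% and 84.1%. These shares all rest on the same untreated allograft and syngraft arrays, and the difference between lists was not tested.

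**Figure D4:**
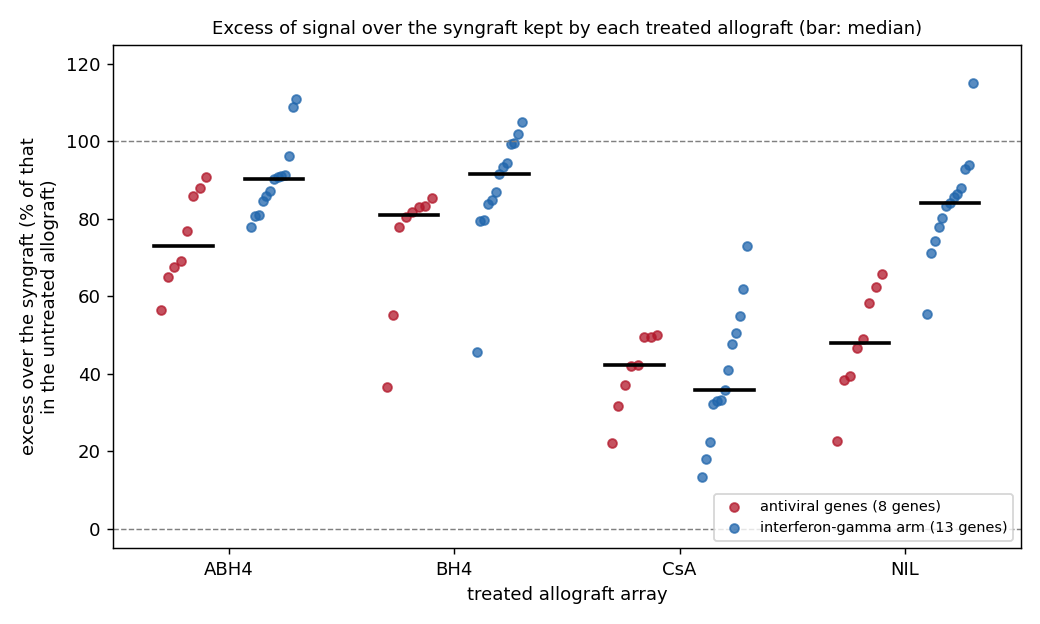
Percent of the untreated allograft's excess over the syngraft kept on each treated array, 1 point per gene that entered, for the antiviral genes and the interferon-gamma arm. Under NIL the medians are 47.9% and 84.1%, and under CsA 42.2% and 35.9%. Other type I interferon induced genes, which are not drawn, had medians of 66.7% under NIL and 37.5% under CsA.

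The ligands and receptor chains of the pathway were measured on the same arrays. Ifnb1, which encodes interferon-beta, had 51.9 on ABH4, 48.5 on BH4, 40.2 on CsA and 56.3 on NIL, against 41.2 in the untreated allograft and 74.6 in the syngraft. Ifna2, Ifna4, Ifna5 and Ifna9 were at the floor on all 6 arrays. Ifna1 was above it only on ABH4 (35.0) and in the untreated allograft (44.5), and Ifna11 only on CsA (39.5) and in the syngraft (40.7). Ifnab was under the floor on ABH4 and between 38.2 and 52.9 on the other arrays. These signals lay close to the floor of 34.8, as did most of those of Ifnb1. Ifnar1 lay between 158 and 216.5 on all arrays, and Ifnar2 was 1.64-fold higher in the untreated allograft than in the syngraft. Of the 11 measured interferons and receptors, 1 was higher (Ifnar2) and 1 lower (Ifnb1) in that comparison, where 15.4% of all genes were higher and 11.9% lower. Transcript levels of the ligands in a whole graft at 1 time do not show how much interferon was made earlier or elsewhere.

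Of 11 receptor kinases, STATs and IRFs measured, 8 were higher in the untreated allograft than in the syngraft, where 15.4% of all genes were. Their median log2 difference was 1.0. Irf7, which amplifies interferon production, was 5.09-fold higher, Stat2 3.03-fold and Irf9 2.0-fold. Under CsA 4 of the 11 were lower than in the untreated allograft, namely Irf1, Irf2, Irf7 (1.70-fold) and Stat2 (1.61-fold, although another Stat2 probe set had the opposite sign). Under NIL none of the 11 was lower, with Irf7 1.16-fold and Irf9 1.24-fold below the untreated allograft. Of all genes, 12.2% were lower under CsA and 5.33% under NIL, so the NIL count is near the share of all genes. Jak1 and Irf3 did not reach 1.5-fold in these comparisons. Socs1, an inhibitor of the receptor kinases, was at least 11.6-fold higher in the untreated allograft than in the syngraft, 1.88-fold lower under CsA and 1.60-fold lower under NIL than in the untreated allograft.

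The wider list of other type I interferon induced genes had 39 of 52 measured. Of these, 33 were higher and none lower in the untreated allograft than in the syngraft, with a median of 1.48. The shares of all genes were 15.4% higher and 11.9% lower. Bst2, which tethers budding virus, was 11.5-fold higher, the nucleic acid sensor Zbp1 10.7-fold, and Oas3, which activates RNase L, 9.77-fold. Under CsA 24 were lower and 1 (Slfn8) higher than in the untreated allograft, with a median of -0.65, led by Ifitm1 (6.13-fold lower), a membrane protein that blocks viral entry. Under NIL 7 were lower and none higher, with a median of -0.24, among them Bst2 (1.82-fold), Rtp4 (1.88-fold) and Ifih1 (1.57-fold), an RNA sensor. ABH4 had 2 higher (Ube2l6 and Ifi204) and 2 lower (Rtp4 and Cmpk2), and BH4 none higher and 2 lower (Epsti1 and Cmpk2). These counts are near the shares of all genes, which were 3.22% higher and 2.49% lower under ABH4, and 4.9% higher and 3.35% lower under BH4. For CsA the shares of all genes were 9.31% higher and 12.2% lower, and for NIL 6.37% higher and 5.33% lower. Ifi204, Cmpk2 and Slfn8 are named because their values were seen. Ifih1 was 1.54-fold and Bst2 2.66-fold lower under CsA.

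The interferon-gamma arm, 17 of 19 measured, had 15 higher in the untreated allograft than in the syngraft, with a median of 3.10. Of all genes, 15.4% were higher in that comparison. Ifng itself had 738 on ABH4, 400.0 on BH4, 102 on CsA and 484 on NIL, against 586 in the untreated allograft and 13.0, under the floor, in the syngraft. It was 5.72-fold lower under CsA and 1.21-fold lower under NIL than in the untreated allograft. The interferon-gamma induced chemokine Cxcl9 was 1.58-fold lower under CsA and 1.06-fold lower under NIL, and the GTPase Gbp2 1.91-fold and 1.18-fold. In the whole arm 14 of 17 were lower under CsA (median -1.06), against all 9 antiviral genes. Under NIL 1 of 17, Irgm2, was lower (median -0.19), against 8 of the 9. Of all genes, 12.2% were lower under CsA and 5.33% under NIL, so the arm's NIL count is near the share of all genes. Irgm2, and Ifngr1 in the next count, are named because their values were seen. In the pair without the untreated array, CsA minus NIL, 10 of 17 were lower and 1 (Ifngr1) higher, with a median of -0.70, against 1 of 9 antiviral genes and a median of -0.11. Other type I interferon induced genes lay between, with 14 of 39 lower, 3 higher and a median of -0.43. Of all genes, 9.44% were lower and 7.84% higher in this pair. Against the untreated allograft, the NIL median of those other type I genes (-0.24) lay nearer that of the arm than that of the antiviral genes (-0.93). No member of the arm was lower under ABH4 or BH4, which is near the shares of all genes (2.49% and 3.35%). With 1 array per group the difference between the lists was not tested.

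Markers of several cell types differed along with these genes. Under CsA 5 of 6 T cell markers, 2 of 3 NK cell markers and 4 of 9 macrophage markers were lower than in the untreated allograft, and the T cell markers Cd3d, Cd3e and Cd2 were at the floor. Cd4 was at the floor on all 6 arrays. Under NIL no marker of these 3 lists was lower, and the sums were 1839 for T cells, 1401 for NK cells and 16538 for macrophages, against 1677, 1152 and 14733 in the untreated allograft. The NK cell marker Ncr1 was 1.49-fold lower under NIL, just short of the threshold. Under BH4, 2 of 3 NK cell markers were lower. Of all genes, 12.2% were lower than in the untreated allograft under CsA, 5.33% under NIL and 3.35% under BH4. The absence of lower markers under NIL is thus near the share of all genes. All 6 fibroblast markers were higher than in the untreated allograft under ABH4 (median log2 difference 1.18), BH4 (2.36) and CsA (2.64), and none was under NIL (-0.03). The fibroblast sums were 9626 on ABH4, 18084 on BH4, 23288 on CsA and 4404 on NIL, against 4861 in the untreated allograft and 26518 in the syngraft. Of 5 endothelial markers, 3 were higher under CsA. The shares of all genes that were higher were 3.22% under ABH4, 4.9% under BH4, 9.31% under CsA and 6.37% under NIL. Of plasmacytoid dendritic cells, the main source of interferon-alpha in blood, 5 of 7 markers were measured and summed to between 5126 and 6281 on the 6 arrays. Cox6a2, which is expressed in heart, made up most of each sum, with 4361 to 5824 units. Bst2 is itself interferon induced, so the sums cannot be read as a level of these cells. The part of cell makeup in the values was not tested.

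Genes outside the list whose pattern over the 6 arrays was nearest to the mean of the 9 members were found by the root mean square difference of centred log2 signals, among 8695 genes above the floor on at least 5 arrays. The nearest was Rtp4 (0.12), a receptor transporter protein with antiviral activity, followed by Nmi (0.13), the partner of Ifi35. Ngdn, Irf2 and Ifih1 (0.14 each), Rad9a and Ccdc86 (0.15 each), Msto1 and Erap1 (0.16 each) and Tlr3 (0.17) completed the 10 nearest. The median over all these genes was 0.77. Of the 10, 5 stood in the lists of related genes (Rtp4, Nmi, Irf2, Ifih1 and Tlr3). The share of the 8695 genes that stands in these lists was not counted. Irf2, Rad9a, Ccdc86, Msto1 and Tlr3 were under the floor in the syngraft, so their distances use the floor value there. The members themselves ranged from 0.13 (Usp18) and 0.15 (Oasl2) to 0.41 (Ifit2) and 0.67 (Mx2). Only 6 arrays enter each distance, so many genes can lie near any pattern.

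**Figure D5:**
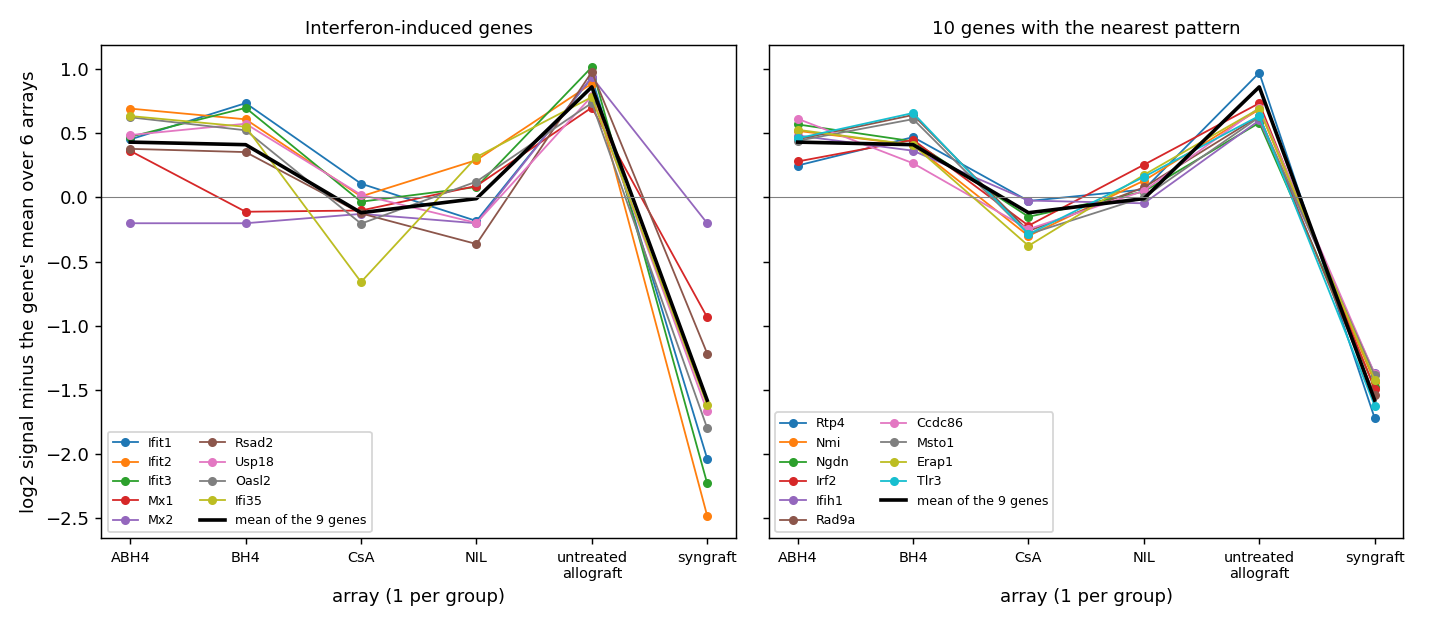
Centred log2 signal over the 6 arrays for the mean of the 9 measured genes and for the 10 genes nearest to it, 1 array per group. Rtp4 and Nmi follow the mean most closely, at 0.12 and 0.13 on the log2 scale.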

How the data were processed

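Total RNA of 6 mouse cardiac grafts had been hybridised to Affymetrix arrays, 1 per group. The authors deposited 1 linear signal intensity per probe set and array, for 22690 probe sets. The mean of the values after trimming 2% from each end was 200 on every array, so they had been scaled before deposit. The scanner software and summarisation method are not given in the sources used here. Deposited medians ran from 77.7 to 88.5.

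Arrays were brought to a common median, the mean of their 6 medians, over the 22626 non-control probe sets, which moved arrays by -0.09 to 0.10 on the log2 scale. Values under the 30th percentile were raised to it before log2 was taken. Of the probe sets assigned to 1 gene, the brightest stood for that gene. Of 20393 single-gene annotation entries, 20364 matched the RefSeq table of GRCm38.p6 by Entrez number. Probe sets of several genes (691) or of none (1555) entered no comparison. A fold against a value at the floor is a lower bound, written "at least".

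Groups were taken from the sample titles. Log2 differences were computed for 15 pairs with Python 3.11.15, numpy 2.4.6 and pandas 2.3.3, and the procedure was tested on simulated data. With 1 array per group there is no p-value, and the number of arrays limits precision. All 10 listed genes are named, and of related genes a fixed set of pathway genes, the 3 with the largest difference per list in 3 of the pairs, and the 10 nearest patterns. Others are named because their values were seen. The members and lists were chosen with earlier results of these data known. Alternatives were the deposited scale, quantile normalization, floors at the 10th and 50th percentiles, the mean over probe sets, a 2-fold threshold and the shared Isg15 probe set as a further member, the last chosen after seeing the data.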

Additional observations from a re-analysis of the deposited data

How the results depend on the processing

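No paired analysis was possible because each group had 1 array. For the same reason no array could be left out, and the spread between grafts is unknown. The medians of the measured genes kept their direction in all 15 pairs under every alternative run. They ran from 2.27 to 2.53 for the untreated allograft against the syngraft. Against the untreated allograft they ran from -0.41 to -0.29 under ABH4, -0.30 to -0.23 under BH4, -0.99 to -0.71 under CsA and -0.93 to -0.61 under NIL. Rescaling lowered NIL by 0.15 and CsA by 0.19 against the untreated allograft on the log2 scale.

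Of 240 recomputed counts of genes, 23 moved by over 1.5 times. Counts lower than in the untreated allograft became 1 in place of 2 for ABH4 on the deposited scale, with quantile normalization, with the floor raised to the 50th percentile, with means of probe sets and at 2-fold. At 2-fold they became 1 for BH4, 4 for CsA and 3 for NIL, and for NIL 5 on the deposited scale and with quantile normalization. CsA was lower than BH4 in 1 gene on the deposited scale, with quantile normalization and at 2-fold, and lower than ABH4 in 1 and than NIL in 0 at 2-fold. ABH4 was higher than NIL in 1 gene with quantile normalization and 0 at 2-fold, and BH4 higher than NIL in 2 on the deposited scale and with quantile normalization and 0 at 2-fold. A floor at the 10th percentile added Mx2 to the genes higher under CsA than under BH4 and NIL, and higher under ABH4 than under BH4. Of 675 recomputed values of single genes, 15 moved, all of Mx2 and all with another floor. The 5 counts of array order held under each scaling and floor, with the untreated allograft highest in 8 or 9 genes.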

Other observations

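Some interferon-related genes had patterns unlike the 9 antiviral genes. Ifitm1 had 906 on ABH4, 580.4 on BH4, 109.8 on CsA and 809.9 on NIL, against 673.5 in the untreated allograft and 284 in the syngraft, so the CsA signal lay below that of the syngraft. Sting1, the adaptor of cytosolic DNA sensing, had 458 on ABH4, 350.4 on BH4, 389 on CsA and 570.1 on NIL, against 364 in the untreated allograft and 149 in the syngraft. It was 1.57-fold higher under NIL than in the untreated allograft. Ube2l6, the conjugating enzyme of the ISG15 system, was 2.23-fold higher under ABH4 than under BH4. Slfn8 was 1.93-fold higher under CsA than in the untreated allograft. Cmpk2, which lies next to Rsad2, was 2.07-fold lower under NIL and 1.18-fold lower under CsA than in the untreated allograft. Sting1 was among the genes named by the fixed rule, but it, Slfn8 and Cmpk2 were chosen here because their values were seen. No cause was tested for any of these.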
